A study of Mus musculus with 2 samples.

Results

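Cytotoxic lymphocytes kill by emptying granules onto a target cell: perforin opens the target's membrane, and granzymes, which are serine proteases, enter and cut proteins inside it. Interferon gamma is a secreted cytokine that the same cells make and that acts on the cells around them. The liver holds many such cells, among them natural killer (NK) cells, type 1 innate lymphoid cells (ILC1), CD8 T cells and innate-like T cells. The genes described here are the 9 genes Gzma, Gzmb, Gzmk, Gzmc, Prf1, Nkg7, Ifng, Cst7 and Ctsw, taken by symbol from the 28692 genes of the count matrices. All 9 were found.

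The study compared immune cells of C57BL/6 mouse livers with and without tumors of MC38, a mouse colon cancer cell line. The MC38 library came from livers taken 14 days after 500000 MC38 cells were given by spleen injection, with the spleen taken out straight after. The control library is labelled as having no tumor and as taken 14 days after a spleen injection of PBS. A protocol text shared by both samples also gives 3000000 MC38 cells under the skin, and the sample titles end in SC+liver for the MC38 library and in SC for the control library. The labels do not settle whether control mice carried a subcutaneous tumor, or whether their spleens were removed. Mononuclear cells were isolated by density centrifugation, so hepatocytes and denser cells were depleted in both groups. Each library pooled 3 mice and there was 1 library per group, so differences between libraries have no replicate check and none was tested. Intervals are exact 95% intervals that cover counting error only.

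Counts are of unique molecular identifiers (UMIs), which mark single captured RNA molecules at the 5′ end of transcripts. The MC38 library held 19822 barcodes with 114421875 UMIs, and the control library held 14258 barcodes with 91617457 UMIs. The 2 libraries shared 63 barcode sequences. More than 10% of UMIs were mitochondrial in 33.3% of MC38 barcodes and in 74.8% of control barcodes, and these were left out. The filters kept 11855 MC38 cells and 3448 control cells.

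Cells were gated on UMIs of marker genes, and 404 MC38 cells and 718 control cells fell into 5 gates. T cells had at least 2 UMIs of Cd3d and Cd3e together. CD8 T cells also had Cd8a or Cd8b1, CD4 T cells had Cd4, and innate-like T cells had Zbtb16, the transcription factor PLZF. NK and ILC1-like cells had at least 2 UMIs of Ncr1, Klrb1c and Klre1 together and none of Cd3d, Cd3e or Trac. They were split by whether NK markers (Eomes, Itga2, S1pr5, Klra4, Klra8, Klra9) or ILC1 markers (Itga1, Cd200r1, Cxcr6, Il7r) had more UMIs. Every gate allowed at most 2 UMIs of B cell, myeloid and plasmacytoid dendritic cell markers. None of the 9 genes was used by a gate.

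The CD8 T gate held 108 MC38 cells and 168 control cells, with medians of 5821.5 and 7141 UMIs per cell. The CD4 T gate held 104 MC38 cells and 122 control cells, with medians of 4378.5 and 6025.5 UMIs. The innate-like T gate held 13 MC38 cells and 142 control cells, with medians of 5097 and 6618.5 UMIs, so its MC38 values rest on very few cells. The NK gate held 130 MC38 cells and 228 control cells, with medians of 3726.5 and 4120.5 UMIs. The ILC1-like gate held 49 MC38 cells and 58 control cells, with medians of 5158 and 4860 UMIs.

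Marker genes outside the gate rules were looked at as a check of the names. Zeb2, a transcription factor of mature NK cells, had a UMI in 48.5% of MC38 and 75.9% of control NK cells, against 22.4% and 12.1% of ILC1-like cells. Klrg1, a receptor of mature NK cells, had one in 36.2% of MC38 and 47.8% of control NK cells. In ILC1-like cells the Klrg1 shares were 32.7% and 5.17%, so it hardly separated the gates in the MC38 library. Tnfsf10, which encodes the death ligand TRAIL and marks liver ILC1, had a UMI in 53.1% of MC38 and 56.9% of control ILC1-like cells, against 7.69% and 6.58% of NK cells. Cd3g was at 371 CPM in MC38 and 845 CPM in control ILC1-like cells, where Cd3d, Cd3e and Trac were at 0 by the gate, against 41.1 and 45.1 CPM in NK cells. CPM is the UMIs of a gene in a gate scaled by the UMIs of all genes there, and whether T cells took part in that gate was not tested. Trav11, the receptor segment of invariant NKT cells, had a UMI in only 7.69% of MC38 and 6.34% of control innate-like T cells.

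The 9 genes lie on 6 chromosomes in build GRCm38, by the GENCODE annotation. Gzma (ENSMUSG00000023132) spans chr13:113093825-113100981 and Gzmk (ENSMUSG00000042385) chr13:113171608-113225908, both on the minus strand. Gzmb (ENSMUSG00000015437) spans chr14:56258838-56262260 and Gzmc (ENSMUSG00000079186) chr14:56231441-56234656, both on the minus strand, and the related genes Gzmd, Gzme, Gzmf, Gzmg and Gzmn lie beside them. Prf1 (ENSMUSG00000037202, chr10:61297833-61304680) and Ifng (ENSMUSG00000055170, chr10:118441046-118445892) are on the plus strand of chromosome 10. Nkg7 (ENSMUSG00000004612, chr7:43437073-43438249) and Cst7 (ENSMUSG00000068129, chr2:150570415-150578944) are on plus strands, and Ctsw (ENSMUSG00000024910, chr19:5465043-5468507) is on the minus strand.

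The 250 bases before the RefSeq start of the 4 granzyme genes are shown because these genes share a function and, in part, a locus, yet were highest in different cells. They were read 5′ to 3′ on the gene's own strand from RefSeq windows of GRCm38.p6. Capitals mark matches to AP-1 (TGANTCA), Runx (TGTGGTT) or T-box (GGTGTGA) letters on either strand, and AACCACA is the Runx motif on the opposite strand. No 2 marked matches overlap.

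Gzma, chr13:113100982-113101231, minus strand: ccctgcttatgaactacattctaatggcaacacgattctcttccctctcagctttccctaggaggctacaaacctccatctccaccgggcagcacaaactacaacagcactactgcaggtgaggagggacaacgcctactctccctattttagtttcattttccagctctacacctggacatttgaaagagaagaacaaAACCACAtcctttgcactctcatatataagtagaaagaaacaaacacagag
Gzmb, chr14:56262335-56262584, minus strand: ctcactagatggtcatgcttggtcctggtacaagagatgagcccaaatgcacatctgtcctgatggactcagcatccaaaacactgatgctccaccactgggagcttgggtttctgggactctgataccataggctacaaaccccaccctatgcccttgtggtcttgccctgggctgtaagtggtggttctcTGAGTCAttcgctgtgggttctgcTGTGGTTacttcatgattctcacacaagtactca
Gzmk, chr13:113180966-113181215, minus strand: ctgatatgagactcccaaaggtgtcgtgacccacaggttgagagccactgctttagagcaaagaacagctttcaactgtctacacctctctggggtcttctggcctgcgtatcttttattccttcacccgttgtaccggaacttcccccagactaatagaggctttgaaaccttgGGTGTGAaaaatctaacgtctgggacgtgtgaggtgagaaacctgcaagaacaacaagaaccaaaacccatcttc
Gzmc, chr14:56234658-56234907, minus strand: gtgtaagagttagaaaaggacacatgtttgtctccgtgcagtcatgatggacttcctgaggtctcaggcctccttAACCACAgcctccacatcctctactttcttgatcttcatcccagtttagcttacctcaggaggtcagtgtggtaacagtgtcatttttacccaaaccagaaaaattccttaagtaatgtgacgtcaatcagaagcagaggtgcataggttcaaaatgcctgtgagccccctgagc

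The Gzmb window held an AP-1 match 58 to 52 bases before the start and a Runx match 34 to 28 bases before it. The Gzma window held a Runx match 51 to 45 bases before the start, and the Gzmc window held one 175 to 169 bases before it. The Gzmk window held a T-box match 75 to 69 bases before the RefSeq start, which lies inside the longer GENCODE gene. Of the 8 genes with a window, 5 held a match to any of the 3 motifs, and Nkg7 was the fifth, with a T-box match 13 to 7 bases before its RefSeq start, which also lies inside the GENCODE gene. Among all 32851 windows of the same length, 6.75% held the AP-1 letters, 4.40% the Runx letters, 3.33% the T-box letters and 13.7% any of them. These matches are letters in a window and were not tested as binding sites.

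In both libraries the granule genes were highest in NK and ILC1-like cells, with Gzma, Prf1 and Nkg7 led by NK cells and Gzmb, Gzmc and Ctsw by ILC1-like cells. The lead of Gzmc in control ILC1-like cells depended on where 1 cell was placed, as given with its values. Gzmk alone was highest in CD8 T cells. The 9 genes were nearly absent from the B cell gate, which held 949 MC38 and 180 control cells, with medians of 2829 and 3570 UMIs. For any gene the share of cells with a UMI was at most 1.69% in MC38 and 3.89% in control, both for Gzma. That gate took cells with at least 3 UMIs of Cd79a, Cd79b and Ms4a1 together and none of Cd3d, Cd3e, Ncr1, Klrb1c or Klre1. Barcodes with RNA of these T and NK cell genes were left out beforehand, so the low shares were in part set by the gate.

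**Figure D1:**
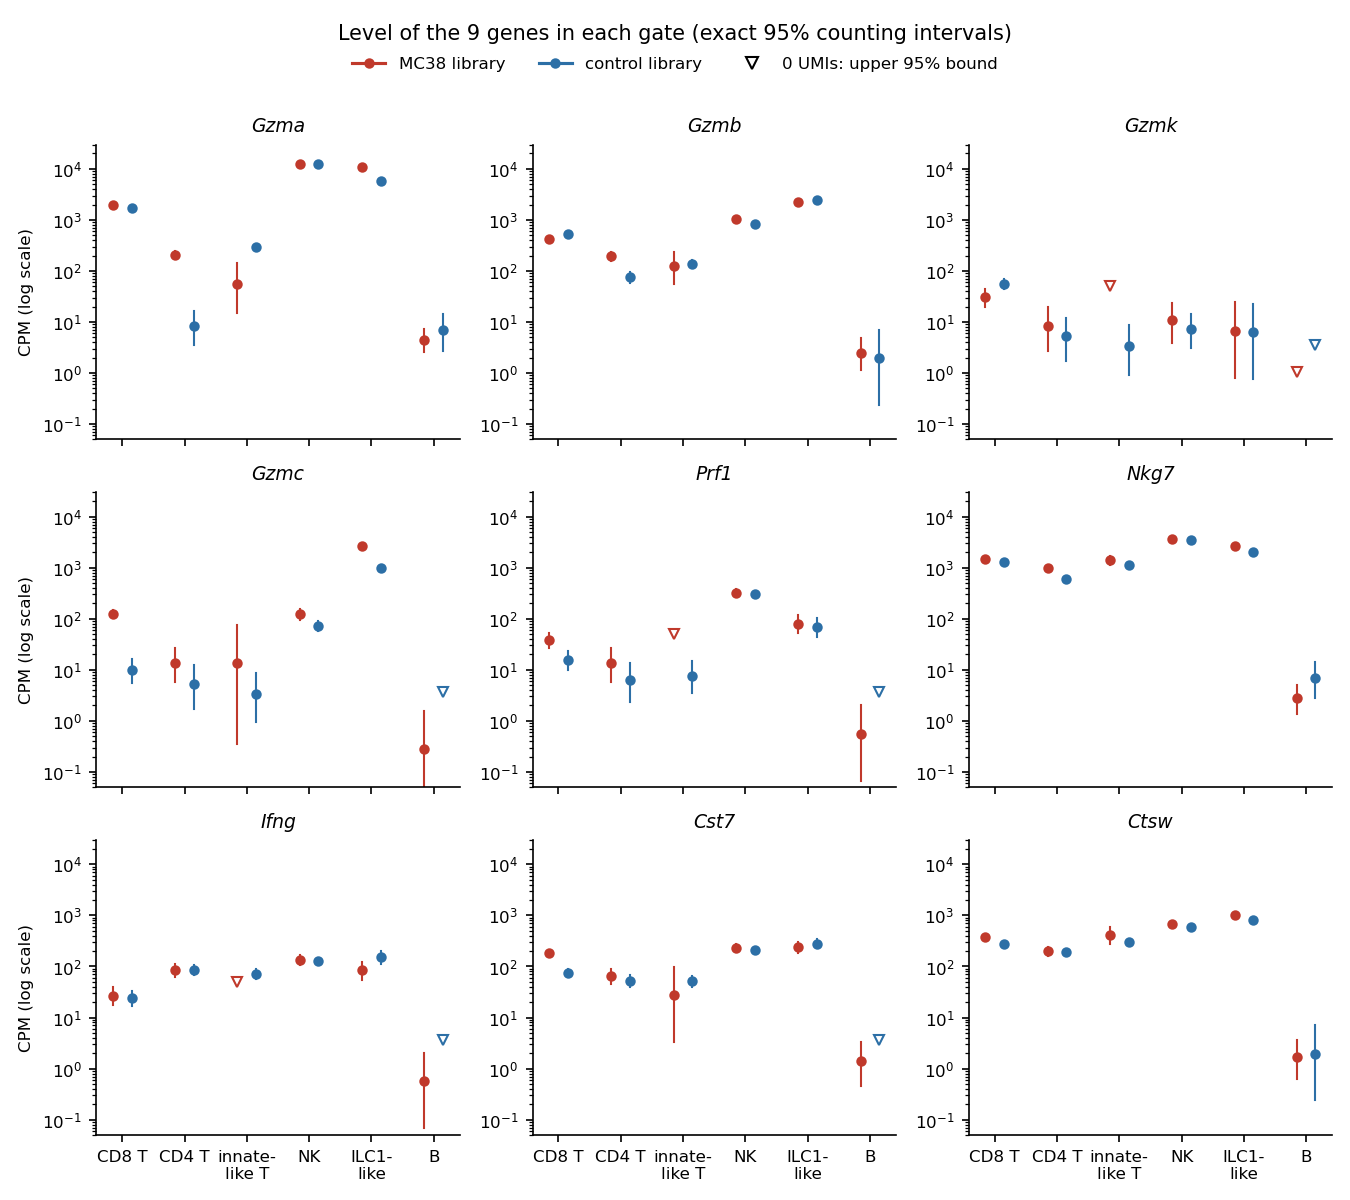
CPM of each of the 9 genes (log scale) in the 5 gates and the B cell gate, MC38 library left and control library right in each pair, with exact 95% counting intervals. Gzma stood at 12381 CPM in MC38 and 12328 CPM in control NK cells, and Gzmc was highest in ILC1-like cells, at 2623 CPM in MC38 and 1000 CPM in control.

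Gzma encodes granzyme A, a protease that cuts after basic residues. It was at 12381 CPM in MC38 and 12328 CPM in control NK cells. ILC1-like cells held 11084 CPM in MC38 and 5739 CPM in control, and CD8 T cells held 1959 CPM in MC38 and 1728 CPM in control. NK cells held 1.12 times the ILC1-like level in the MC38 library and 2.15 times that level in the control library. The order NK, ILC1-like and CD8 T was the same in both libraries, with no overlap of neighbouring intervals. These intervals do not cover the spread between cells. In MC38 1 ILC1-like cell held 420 of 3317 Gzma UMIs, and without it the level was 10299 CPM, below its counting interval (10710 to 11468).

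Gzmb encodes granzyme B, which cuts after aspartate and starts apoptosis. ILC1-like cells held 2222 CPM in MC38 and 2420 CPM in control, against 1039 and 817 CPM in NK cells and 415 and 529 CPM in CD8 T cells. The ILC1-like level was 2.14 times the NK level in the MC38 library and 2.96 times in the control library. Thus Gzma and Gzmb had opposite orders in NK and ILC1-like cells in both libraries.

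Gzmc encodes granzyme C, a mouse relative of granzyme B. It was at 2623 CPM in MC38 and 1000 CPM in control ILC1-like cells, against 123 and 71.3 CPM in NK cells, a ratio of 21.3 in the MC38 library and 14.0 in the control library. The control ratio left out 1 cell with NK markers and 1 UMI of Trac that held 1491 Gzmc UMIs. With the limits on Trac and Cd3 UMIs lifted, that cell entered the NK gate. Gzmc was then at 2542 CPM in MC38 and 1052 CPM in control ILC1-like cells, against 111 CPM in MC38 and 1270 CPM in control NK cells, so NK cells led in the control library. In the gates as defined, Gzmc was carried by a minority of ILC1-like cells: 42.9% of MC38 cells (interval 28.8 to 57.8) and 46.6% of control cells (33.3 to 60.1) had a UMI. Of NK cells, 6.15% in MC38 and 3.51% in control had one. Reads of Gzmc and of its near relatives may not all be told apart by a count per gene, and this was not tested. Gzmd, Gzme, Gzmg and Gzmn had no UMI in the CD8 T and NK gates of either library. Their UMI counts in ILC1-like cells, where Gzmc was highest in the gates as defined, are not given. Whether reads of these genes bear on the Gzmc level of ILC1-like cells was not tested.

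Prf1 encodes perforin. NK cells held 324 CPM in MC38 and 303 CPM in control, 4.04 and 4.37 times the ILC1-like levels of 80.2 and 69.4 CPM. A UMI was seen in 67.7% of MC38 and 65.8% of control NK cells. Perforin RNA was therefore highest in NK cells while Gzmb was highest in ILC1-like cells.

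Nkg7 encodes a granule membrane protein needed for degranulation. It was the most widely detected of the 9 genes in CD8 T and CD4 T cells, with a UMI in 95.4% of MC38 and 94.05% of control CD8 T cells. NK cells held 3595 CPM in MC38 and 3510 CPM in control, and CD4 T cells, the lowest gate, held 999 and 595 CPM. In MC38 cells the intervals of the CD8 T and innate-like T levels (1453 and 1387 CPM) overlapped.

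Cst7 encodes cystatin F, an inhibitor of the cathepsins that activate granzymes, and Ctsw encodes cathepsin W, a protease of cytotoxic lymphocytes. Cst7 was at 227 CPM in MC38 and 214 CPM in control NK cells and at 237 and 281 CPM in ILC1-like cells. Ctsw was at 1006 CPM in MC38 and 814 CPM in control ILC1-like cells and at 676 and 590 CPM in NK cells. Both were lower in CD4 T cells, where Cst7 was at 63.9 and 52.5 CPM and Ctsw at 197 and 192 CPM.

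Ifng encodes interferon gamma. It was at most 134 CPM in MC38 cells (NK gate) and 155 CPM in control cells (ILC1-like gate). CD4 T cells held more of it than CD8 T cells, 84.1 against 26.9 CPM in the MC38 library and 85.04 against 24.1 CPM in the control library. Gzmk, which encodes granzyme K, a further protease that cuts after basic residues, was at 30.3 CPM in MC38 and 55.5 CPM in control CD8 T cells. In the other 4 gates it had at most 6 UMIs in MC38 and 8 UMIs in control cells.

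**Figure D2:**
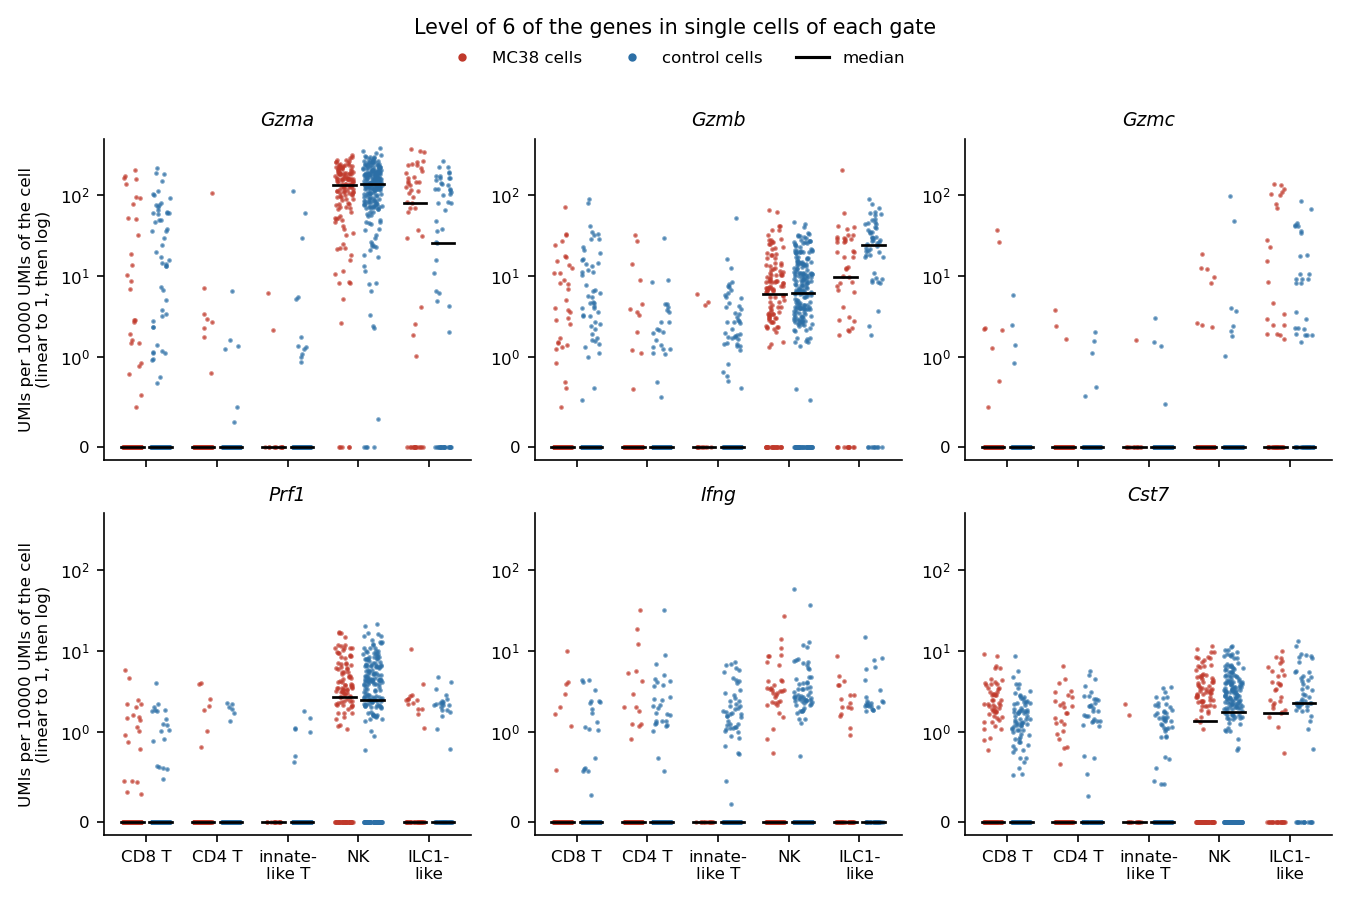
UMIs of 6 of the 9 genes per 10000 UMIs of the cell (linear to 1, then log), 1 point per cell, for the 5 gates of the MC38 library (left of each pair) and the control library (right), with the median as a line. Gzma filled nearly every NK cell but a minority of CD8 T cells, and Gzmc lay at 0 in most cells of every gate.

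How the RNA was spread over cells differed between genes and gates. Gzma had a UMI in 96.2% of MC38 and 98.2% of control NK cells, with a median of 135 and 139 UMIs per 10000 UMIs of the cell. In CD8 T cells only 25.9% of MC38 cells (interval 17.97 to 35.3) and 30.4% of control cells (23.5 to 37.9) had a Gzma UMI, and the richest 3 MC38 cells and 8 control cells held at least 50% of all Gzma UMIs of the gate. After every cell was thinned to 1000 UMIs, the shares of CD8 T cells with a Gzma UMI were 17.6% in MC38 and 22.6% in control, and those of NK cells were 93.02% and 96.1%, with 1 MC38 NK cell left out as shallower.

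Gzma and Gzmb were often found in the same CD8 T cells. Of CD8 T cells with a Gzma UMI, 89.3% in MC38 and 72.5% in control also had a Gzmb UMI, against 10% and 11.1% of those without Gzma. At 1000 UMIs per cell, Gzmb was seen in 52.6% of MC38 and 39.5% of control CD8 T cells with Gzma, and in 4.49% and 6.15% of those without it. Prf1 had a UMI in 48.5% of MC38 and 22% of control CD8 T cells with Gzmb, against 5.33% and 6.78% of those without Gzmb. At 1000 UMIs per cell the Prf1 shares were 21.4% in MC38 cells with Gzmb and 3.19% in those without, but in control cells 0 of 23 with Gzmb (exact upper bound 14.8%) and 2.07% of those without. Gzmc had a UMI in 21.2% of MC38 and 6% of control CD8 T cells with Gzmb, against 1.33% and 0.85% of those without, and at equal depth in 1 MC38 and 0 control cells with Gzmb. So Prf1 and Gzmc were too sparse at equal depth to be placed with Gzmb in control CD8 T cells. NK cells carried a median of 5 of the 9 genes in both libraries, ILC1-like cells 5 in MC38 and 6 in control, and CD8 T cells 3 in both. CD4 T cells carried a median of 1 in MC38 and 2 in control, and innate-like T cells 2 and 3. At 1000 UMIs per cell the medians were 3 and 3 in NK cells, 4 and 3 in ILC1-like cells, 1 and 1 in CD8 T cells, 0 and 1 in CD4 T cells and 1 and 1 in innate-like T cells. In ILC1-like cells Gzmc had a UMI in 47.4% of MC38 and 55.1% of control cells with Gzmb, against 27.3% and 0% of those without. At 1000 UMIs per cell the shares were 25% with Gzmb and 23.8% without it in MC38, and 30.2% and 6.67% in control.

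The comparison of MC38 with control livers asks whether these genes differ within a gate when a liver tumor is present. A gene was counted as higher or lower at a ratio of at least 1.5 when both libraries together held at least 20 of its UMIs in the gate. Gzmc and Gzma were higher in MC38 in ILC1-like cells. Gzmc was also higher in CD8 T cells, but it reached 20 UMIs there through the MC38 library, where 1 cell held 60 of 111 UMIs. Gzmc in NK cells and Gzma in CD4 T cells also passed 1.5-fold, but the direction of the first turned with the placement of single cells and the count of the second was lost without 1 cell. In NK cells the other 7 genes counted were within 1.5-fold. In bulk sums over a gate, more cells that carry a gene and more RNA per cell cannot be told apart by the sum alone.

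**Figure D3:**
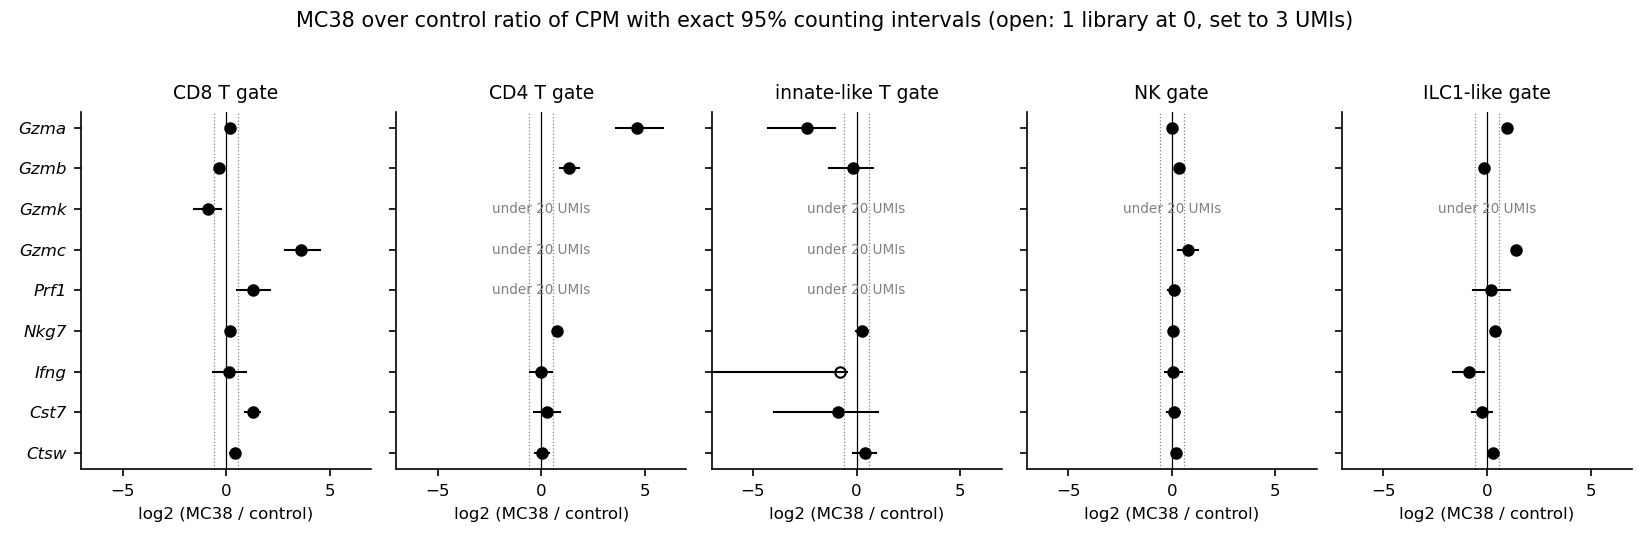
Log2 ratio of CPM, MC38 over control, for each gene in each of the 5 gates, with exact 95% counting intervals; open symbols mark a library at 0 UMIs, set to 3 UMIs. Gzmc lies to the right of 0 in CD8 T (3.64), NK (0.79) and ILC1-like cells (1.39), and the NK value changed sign when single cells were placed or weighted differently.

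In CD8 T cells 3 of 9 genes were at least 1.5-fold higher in MC38 (Gzmc, Prf1 and Cst7), against 13% of all 7944 genes with as many UMIs, and 1 of 9 was lower (Gzmk), against 13.1% of all genes. The median log2 ratio was 0.18 over the 9 genes and 0.01 over all genes. Gzmc had 111 UMIs in MC38 and 15 UMIs in control, or 125 and 10.0 CPM, a log2 ratio of 3.64 (interval 2.85 to 4.52). It was carried by 8 MC38 cells and 4 control cells, and 1 MC38 cell held 60 of the 111 UMIs. That cell had 19 UMIs of Cd3d but also 6 of Ncr1 and 6 of Klrb1c. It held 468 of the 1745 MC38 Gzma UMIs of the gate as well. The CD8 T gate set no limit on NK receptor UMIs, and the identity of this cell was not tested. Without the cell with most Gzmc UMIs in each library the Gzmc levels were 58.8 CPM in MC38 and 4.05 CPM in control.

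Prf1 was at 38.2 CPM in MC38 and 15.4 CPM in control CD8 T cells, from 34 and 23 UMIs, a log2 ratio of 1.31 (interval 0.51 to 2.14). Cst7 was at 184 CPM in MC38 and 75.5 CPM in control, a log2 ratio of 1.29 (0.93 to 1.64), but its share of cells with a UMI was close, at 48.1% and 42.9%. Gzmk was at 30.3 CPM in MC38 and 55.5 CPM in control, a log2 ratio of -0.87 (-1.56 to -0.23), and 8.33% of MC38 and 13.1% of control CD8 T cells had a UMI. Gzma, Gzmb, Nkg7 and Ctsw differed by less than 1.5-fold, with log2 ratios of 0.18, -0.35, 0.18 and 0.42. Ifng had 24 UMIs in MC38 and 36 UMIs in control, with a log2 ratio of 0.16 (-0.65 to 0.95). Summed hepatocyte markers were at 277 CPM in MC38 and 93.6 CPM in control CD8 T cells, and summed myeloid markers at 203 and 82.9 CPM, with all 6 and all 8 markers detected in both libraries; their part in these ratios was not tested.

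In CD4 T cells 3 of 6 genes counted were higher in MC38 (Gzma, Gzmb and Nkg7), against 14.7% of all 7165 genes, and none was lower, against 12.8% of all genes. The median log2 ratio was 0.52 over the 6 genes and 0.01 over all genes. Gzma was at 205 CPM in MC38 and 8.40 CPM in control, but 108 of its 122 MC38 UMIs were in 1 cell, and without the top cell of each library it was at 24.0 and 5.27 CPM, under the 20 UMIs needed for a count. With 8 UMIs in control, it reached that minimum through the MC38 library. Gzmb was at 193 CPM in MC38 and 75.6 CPM in control (log2 ratio 1.36, interval 0.92 to 1.80), with 60 of 115 MC38 UMIs in 1 cell. As a mean of each cell's CPM it was at 98.6 in MC38 and 74.6 in control, within 1.5-fold (log2 ratio 0.40). Fewer CD4 T cells had a Gzmb UMI in MC38 (11.5%, interval 6.11 to 19.3) than in control (18.9%, 12.3 to 26.9). The 12 MC38 cells with Gzmb had a median of 3.5 UMIs, and the 23 control cells with it had a median of 2.

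Nkg7 was spread more evenly: 594 UMIs in MC38 and 567 UMIs in control gave 999 and 595 CPM, a log2 ratio of 0.75 (interval 0.58 to 0.92), with a UMI in 58.7% and 59.0% of CD4 T cells. With no limit on UMIs of other lineages its log2 ratio was 0.18. Ifng was level at 84.1 CPM in MC38 and 85.04 CPM in control (log2 ratio -0.02, interval -0.55 to 0.51), as were Ctsw (0.04) and Cst7 (0.28). Gzmk, Gzmc and Prf1 had 5 to 8 UMIs in each library. Foxp3, the factor of regulatory T cells, had a UMI in 3.85% of MC38 and 9.02% of control CD4 T cells, and summed hepatocyte markers were at 695 CPM in MC38 and 91.3 CPM in control with all 6 detected. Summed myeloid markers were at 278 and 111 CPM with all 8 detected, and the part of any of these in the ratios was not tested.

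In innate-like T cells all MC38 values rest on 13 cells, and the minimum of 20 UMIs was met by control UMIs alone for Gzma, Ifng and Cst7. These 3 of the 6 genes counted were at least 1.5-fold lower, against 21.3% of all 6386 genes, and none was higher, against 20.6% of all genes, and nothing is read from these counts. Ifng had no UMI in MC38 cells, against 84 UMIs in 47 of 142 control cells (33.1%). At the floor of 3 UMIs its MC38 level would be 0.57 times the control level, and the exact interval for 0 UMIs allows up to 0.72 times. A count of 0 in 13 cells allows a share of cells with an Ifng UMI of up to 24.7% (exact upper bound). At the 30% mitochondrial limit the gate grew to 28 MC38 and 693 control cells, and Ifng was at 25.6 CPM in MC38 and 97.9 CPM in control, from 4 and 519 UMIs.

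Gzma had 4 UMIs in MC38 and 342 UMIs in control innate-like T cells, or 54.9 and 292 CPM, and 168 of the control UMIs were in 1 cell. Its direction turned with 5 other settings, among them the 30% mitochondrial limit, under which it was at 179 CPM in MC38 and 148 CPM in control. Cst7 had 2 UMIs in MC38 and 60 in control and also turned at that limit. Nkg7, at 1387 CPM in MC38 and 1144 CPM in control, Ctsw, at 412 and 308 CPM, and Gzmb, at 124 and 138 CPM, were within 1.5-fold. Summed hepatocyte markers were at 1442 CPM in MC38 and 91.5 CPM in control innate-like T cells, and summed myeloid markers at 536 and 88.04 CPM, all detected in both libraries, and their part was not tested.

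In NK cells 1 of 8 genes counted was higher in MC38 (Gzmc), against 8.68% of all 7203 genes, and none was lower, against 15.1% of all genes. The median log2 ratio was 0.09 over the 8 genes and -0.09 over all genes. Gzma had a log2 ratio of 0.01 (interval -0.04 to 0.05), the narrowest of this gate, from 6923 UMIs in MC38 and 13667 UMIs in control. Nkg7 (0.03), Ifng (0.08), Cst7 (0.09), Prf1 (0.09), Ctsw (0.20) and Gzmb (0.35, interval 0.19 to 0.50) were also within 1.5-fold.

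Gzmc in NK cells was at 123 CPM in MC38 and 71.3 CPM in control (log2 ratio 0.79, interval 0.30 to 1.28), from 8 cells in each library. In control 49 of 79 UMIs were in 1 cell, and without the top cell of each library the levels were 80.6 and 27.2 CPM. As a mean of each cell's CPM the ratio turned, with a log2 value of -0.41. A control cell outside the gates weighed more: it had 1 UMI of Trac, 37969 UMIs in all, 9 UMIs of Ncr1, 16 of Klrb1c and 1491 of Gzmc. With the limits on Trac and Cd3 UMIs lifted, that cell entered the NK gate and the log2 ratio was -3.52. The direction of Gzmc in NK cells therefore depends on where single cells are placed.

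NK cells of the 2 libraries also differed in genes outside the set. Eomes had a UMI in 60% of MC38 and 77.6% of control NK cells. Summed hepatocyte markers were at 658 CPM in MC38 and 87.5 CPM in control NK cells with all 6 markers detected in both libraries, and summed myeloid markers were at 903 and 118 CPM with all 8 detected. Their part in the values of the 9 genes was not tested.

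In ILC1-like cells 2 of 8 genes counted were higher in MC38 (Gzma and Gzmc), against 13.4% of all 4428 genes, and 1 of 8 was lower (Ifng), against 17% of all genes. The median log2 ratio was 0.26 over the 8 genes and -0.04 over all genes. Gzmc had 785 UMIs in MC38 and 317 UMIs in control, a log2 ratio of 1.39 (interval 1.20 to 1.58). The share of cells with Gzmc did not follow, at 42.9% in MC38 and 46.6% in control. Cells with Gzmc had a median of 7 UMIs in MC38 and 4 UMIs in control, not scaled to depth. Per 10000 UMIs of the cell, the median over all cells of the gate was 0 in both libraries. The upper quartile was lower in MC38 (4.63) than in control (8.89), and only the richest cells were higher, with maxima of 139 and 84.2. The richest 3 cells held at least 50% of the Gzmc UMIs in each library. Without the top cell of each library the levels were 2151 CPM in MC38 and 699 CPM in control.

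Gzma was at 11084 CPM in MC38 and 5739 CPM in control ILC1-like cells, a log2 ratio of 0.95 (interval 0.87 to 1.03), with a UMI in 71.4% and 63.8% of cells. The median cell had 79.3 Gzma UMIs per 10000 in MC38 and 25.7 in control. Gzmb went the other way in the median cell, at 9.66 UMIs per 10000 in MC38 and 24.0 in control, while its sum was within 1.5-fold (2222 and 2420 CPM), and 1 MC38 cell held 178 of 665 UMIs. Without the top cell of each library Gzmb was at 1676 CPM in MC38 and 2282 CPM in control. Eomes, an NK factor that the gate used, had a UMI in 4.08% of MC38 and no control ILC1-like cell.

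Klrg1, which the gate did not use, had a UMI in 32.7% of MC38 and 5.17% of control ILC1-like cells, against 36.2% and 47.8% of NK cells. Its part in the higher Gzma was not tested. Ifng was at 83.5 CPM in MC38 and 155 CPM in control (log2 ratio -0.89, interval -1.64 to -0.16), from 25 and 49 UMIs. At the 30% mitochondrial limit, which gave 64 MC38 and 210 control cells, it was within 1.5-fold, at 82.6 CPM in MC38 and 102 CPM in control (-0.31). Nkg7 (0.38), Ctsw (0.31), Prf1 (0.21), Cst7 (-0.24) and Gzmb (-0.12) were within 1.5-fold on the log2 scale. Summed hepatocyte markers were at 495 CPM in MC38 and 145 CPM in control ILC1-like cells, with none of 6 at 0 in MC38 and 1 of 6 at 0 in control.

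**Figure D4:**
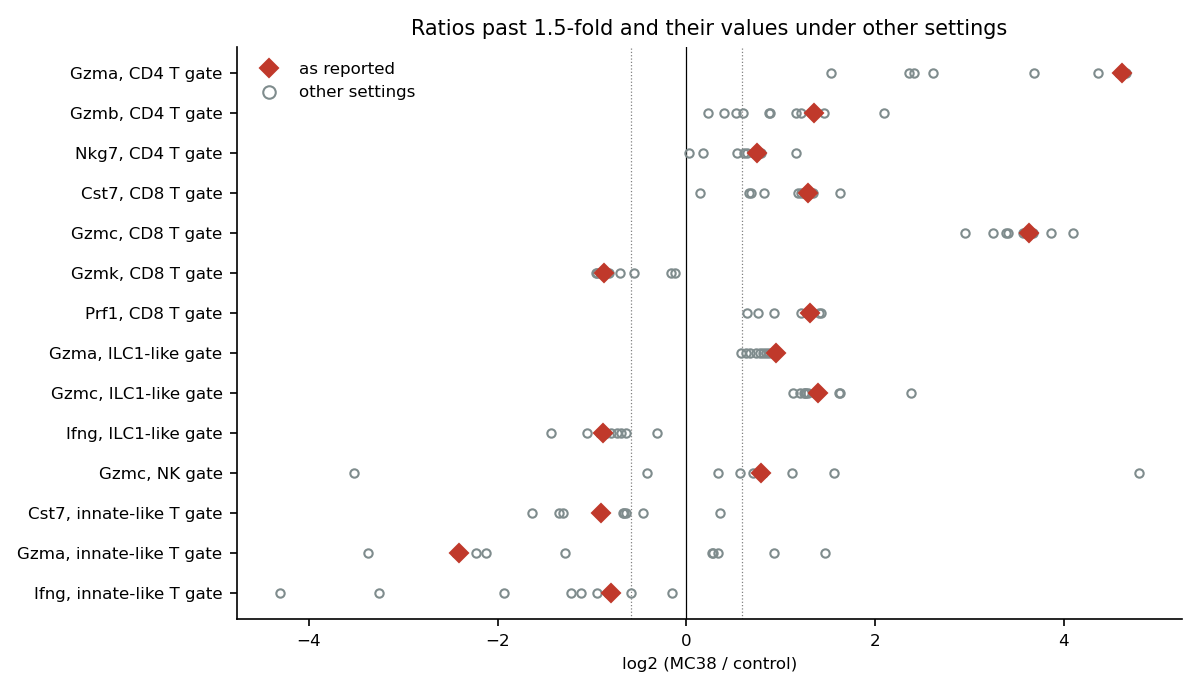
Log2 ratio, MC38 over control, of the 14 gene and gate pairs past 1.5-fold, as reported (filled) and under other settings (open). Gzmc in ILC1-like cells lies between 1.13 and 2.38 throughout, and Gzma in innate-like T cells lies on both sides of 0.

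Of the 14 ratios past 1.5-fold, Gzmc in ILC1-like cells stayed past it in all 14 settings that changed cells or scaling, with log2 ratios of 1.13 to 2.38. Gzmc and Cst7 in CD8 T cells and Gzma in ILC1-like cells stayed past it in 13 of 14, the exception being thinning to 1000 UMIs. After thinning, Cst7 had a log2 ratio of 0.14 and Gzma of 0.58, and Gzmc in CD8 T cells was under 20 UMIs. Thinning kept 1 of the 14 ratios past 1.5-fold. Prf1 in CD8 T cells fell under 20 UMIs at the 5% mitochondrial limit and after thinning. Gzmb and Nkg7 in CD4 T cells passed in 11 of 14 settings each, Ifng in ILC1-like cells in 12 and Gzmc in NK cells in 9. The higher Gzma in CD4 T cells was lost when the top cell was left out, and the lower Gzmk in CD8 T cells was lost at the 30% mitochondrial limit, with a log2 ratio of -0.16. At that limit, which kept 551 MC38 and 2427 control cells in the 5 gates, Gzma in CD8 T cells was at 1886 CPM in MC38 and 1004 CPM in control, a log2 ratio of 0.91.

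**Figure D5:**
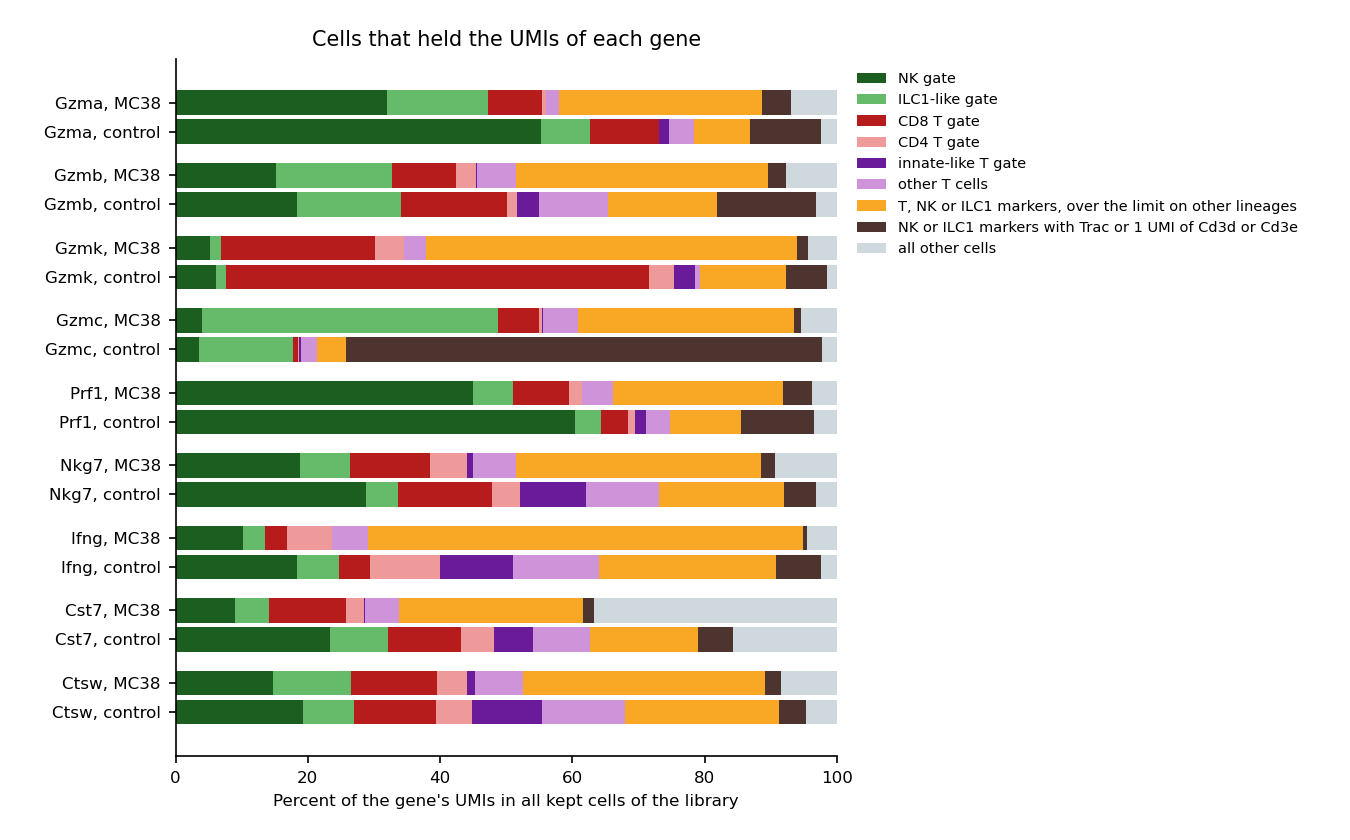
Share of each gene's UMIs in all kept cells of a library that lay in each gate and in ungated cells, MC38 bar above control bar. For Gzmc the ILC1-like gate held 44.8% in MC38 and 14.3% in control, and ungated cells held 77.3% in control.

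Much of the RNA of these genes lay outside the 5 gates. Ungated cells held 41.2% of Gzma UMIs in MC38 and 21.3% in control, and 45.6% and 33.7% of Gzmb UMIs. Cells over the limit on other-lineage markers alone held 30.6% of MC38 and 8.51% of control Gzma UMIs, and 65.8% of MC38 and 26.7% of control Ifng UMIs. For Ifng 1 MC38 barcode over that limit held 185 of 736 UMIs (25.1%). With no such limit, Ifng was at 144 CPM in MC38 and 83.2 CPM in control CD4 T cells (log2 ratio 0.79) and at 38.1 and 22.9 CPM in CD8 T cells (0.73). The near-equal Ifng levels given above are those of cells with few B cell or myeloid UMIs. Whether the barcode with 185 Ifng UMIs entered either gate was not tested, so a level without the limit may rest on 1 cell. For Gzmc the control cell with 1491 UMIs held 67.2% of the 2220 UMIs of its library, and it also held 1188 UMIs of Gzma, 433 of Gzmb, 123 of Nkg7 and 35 of Prf1.

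Other genes of the pathway were counted from 6 lists with the same 1.5-fold rule. The lists were chosen with earlier results of these data known. The genes named are those with the highest or lowest ratio of a list in a gate. Their MC38 values in innate-like T cells rest on 13 cells. Of all genes with as many UMIs, 13% were higher and 13.1% lower in MC38 CD8 T cells, 14.7% and 12.8% in CD4 T cells, 20.6% and 21.3% in innate-like T cells, 8.68% and 15.1% in NK cells, and 13.4% and 17% in ILC1-like cells. The median log2 ratio of all genes lay between -0.09 and 0.08. Summed hepatocyte and myeloid markers, given above, were higher in the MC38 than in the control cells of the CD8 T, CD4 T, innate-like T and NK gates, and in ILC1-like cells summed myeloid markers were at 150 CPM in MC38 and 110 CPM in control. Their part in the lists was not tested.

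Among granule matrix genes, cathepsins and granzyme inhibitors, 5 of 8 were higher in MC38 and none lower in CD8 T cells, 6 higher and 1 lower of 9 in CD4 T cells, 2 higher of 5 in innate-like T cells, 1 higher and 1 lower of 7 in NK cells and 3 higher of 6 in ILC1-like cells. Median log2 ratios were 0.73 in CD8 T, 0.83 in CD4 T, 0.47 in innate-like T, 0.37 in NK and 0.61 in ILC1-like cells. In CD8 T, CD4 T and ILC1-like cells the higher genes were a larger share than among all genes. Ctsl, Ctsh and Lgmn are also expressed by macrophages, and summed myeloid markers were at 278 CPM in MC38 and 111 CPM in control CD4 T cells and at 203 and 82.9 CPM in CD8 T cells. A serpin gene was the highest in 4 of 5 gates. Serpinb9, the inhibitor of granzyme B, was at 103 CPM in MC38 and 33.6 CPM in control CD4 T cells (log2 ratio 1.61), whereas it was the lowest of its list in CD8 T cells (0.18). Serpinb6a led in ILC1-like cells at 100 CPM in MC38 and 41.0 CPM in control (1.29) and in NK cells (0.71), and Serpinb6b in innate-like T cells at 206 and 68.4 CPM (1.59). Ctsl, a cathepsin, led in CD8 T cells (1.25), from 17 and 12 UMIs. Ctsc, the cathepsin that activates granzymes, was lowest in NK cells, at 80.5 CPM in MC38 and 133 CPM in control (-0.72), and in ILC1-like cells (-0.08). Srgn, the proteoglycan that packs granules, was lowest in innate-like T cells (-0.24), and Lgmn, a lysosomal protease, in CD4 T cells (-0.76, from 7 and 19 UMIs).

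Among genes of granule traffic and release, none of 12 passed 1.5-fold in CD8 T or NK cells in either direction. In CD4 T cells 4 of 12 were higher and 1 lower, in innate-like T cells 2 of 10 higher and 3 lower, and in ILC1-like cells none of 10 higher and 3 lower. The innate-like T counts lie near the 20.6% and 21.3% of all genes there. Median log2 ratios were 0.23 in CD8 T, 0.29 in CD4 T, 0.23 in innate-like T, 0.01 in NK and -0.04 in ILC1-like cells. Lyst, mutated in beige mice with giant granules, was lowest in ILC1-like cells, at 26.7 CPM in MC38 and 88.3 CPM in control (log2 ratio -1.72), and highest in NK cells (0.43). In ILC1-like cells Lyst reached the minimum for a count through the control library. Stx7, a fusion protein, was highest in CD4 T cells (1.14) and lowest in NK cells (-0.12), and Lamp2, a lysosome membrane protein, was lowest in CD4 T cells (-0.87). The other ends of the list were Lamp1 (0.53) and Unc13d (-0.47) in CD8 T cells, Ap3b1 (1.36) and Sytl2 (-1.18) in innate-like T cells, and Rab27a (0.50) in ILC1-like cells.

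Among cytokines, death ligands and chemokines, 2 of 6 were higher in CD8 T cells, 5 of 7 higher and 1 lower in CD4 T cells, 3 of 7 lower in innate-like T cells, 2 of 6 higher in NK cells and 4 of 6 lower in ILC1-like cells. The counts are of few genes, and for CD4 T cells stand against 14.7% of all genes higher and for ILC1-like cells against 17% lower. Median log2 ratios were 0.45 in CD8 T, 0.75 in CD4 T, -0.52 in innate-like T, 0.40 in NK and -0.70 in ILC1-like cells, with libraries at 0 set to 3 UMIs, against all-gene medians near 0. In CD4 T cells summed myeloid markers were at 278 CPM in MC38 and 111 CPM in control. Ccl3, a chemokine, was at 266 CPM in MC38 and 7.35 CPM in control CD4 T cells (log2 ratio 5.18). These levels came from 158 and 7 UMIs, so Ccl3 reached the minimum for a count there through the MC38 library. It was at 114 CPM in MC38 and 312 CPM in control ILC1-like cells (-1.46) and at 148 and 168 CPM in NK cells (-0.18). In innate-like T cells it had 0 UMIs in MC38 and 32 UMIs in control. Xcl1, which attracts dendritic cells, was at 186 CPM in MC38 and 56.2 CPM in control CD8 T cells (1.73), but at 47.1 and 218 CPM in CD4 T cells (-2.21) and at 54.9 and 256 CPM in innate-like T cells (-2.22). In innate-like T cells Xcl1 reached the minimum for a count through the control library. Ccl4, a relative of Ccl3, was at 869 CPM in MC38 and 327 CPM in control NK cells (1.41). Ccl5 was lowest in CD8 T cells (-0.32), and Fasl, which encodes a death ligand, was highest in ILC1-like cells (-0.14).

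Among receptors and signal genes that induce interferon gamma, 2 of 9 were higher and 1 lower in CD8 T cells, 1 higher and 2 lower of 9 in CD4 T cells, 2 higher and 2 lower of 9 in innate-like T cells, 2 higher and 1 lower of 8 in NK cells, and 1 higher and 3 lower of 9 in ILC1-like cells. In innate-like T cells these are near the shares of all genes (20.6% and 21.3%), as is the lower count in CD8 T cells (13.1%). Median log2 ratios were -0.07 in CD8 T, 0.23 in CD4 T, -0.02 in innate-like T, 0.07 in NK and -0.26 in ILC1-like cells. Il2ra, the high-affinity chain of the interleukin-2 receptor, was highest in CD4 T cells, at 118 CPM in MC38 and 44.1 CPM in control (log2 ratio 1.42), and in CD8 T cells (0.95), and Il2rb in NK cells, at 642 and 387 CPM (0.73). Il18r1, a receptor chain for interleukin-18, was highest in innate-like T (0.74) and ILC1-like cells (0.72) and lowest in CD8 T cells (-0.64). Il12rb2 was lowest in CD4 T cells (-0.82) and Il21r in ILC1-like cells (-1.07).

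Among transcription factors of these cells, 3 of 11 were higher and 1 lower in CD8 T cells, 6 higher and 1 lower of 11 in CD4 T cells, 2 higher and 3 lower of 10 in innate-like T cells, 1 higher and 2 lower of 11 in NK cells, and 2 higher and 2 lower of 10 in ILC1-like cells. In CD4 T cells 14.7% of all genes were higher, while the innate-like T counts are near the 20.6% and 21.3% of all genes. Median log2 ratios were 0.05 in CD8 T, 0.68 in CD4 T, -0.25 in innate-like T, 0.00 in NK and 0.15 in ILC1-like cells. Irf8 was highest in CD8 T cells, at 155 CPM in MC38 and 28.1 CPM in control (log2 ratio 2.46), and in NK cells, at 1372 and 696 CPM (0.98). Tox, a factor of chronically stimulated T cells, was highest in CD4 T cells, at 121 CPM in MC38 and 40.9 CPM in control (1.56), and lowest in ILC1-like cells, at 43.4 and 170 CPM (-1.97), and NK cells (-1.08). In ILC1-like cells Tox reached the minimum for a count through the control library. Tbx21, which encodes T-bet, was lowest in CD4 T (-0.74) and innate-like T cells (-1.58, from 3 MC38 and 144 control UMIs). Zeb2 was lowest in CD8 T cells (-0.89) and highest in innate-like T cells (1.20, from 3 MC38 and 21 control UMIs). Tcf7 was highest in ILC1-like cells (0.82).

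Of the other granzyme genes, only Gzmm, which encodes granzyme M, had 20 UMIs in any gate. It had 7 UMIs in MC38 and 67 UMIs in control CD8 T cells (7.86 and 44.8 CPM), and 2 and 26 UMIs in NK cells (3.58 and 23.5 CPM). In both gates it reached the minimum through the control library alone, so its log2 ratios of -2.51 and -2.71 are given as a description. Gzmf had 10 UMIs in MC38 and none in control CD8 T cells.

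Genes were ranked by how closely their log2 level, with 10 CPM added, followed each of the 9 genes over the 10 values of 5 gates in 2 libraries. This describes 10 points that share libraries, among 6908 genes with at least 100 UMIs. Gzma was followed most closely by Lamb3 (Pearson r 0.97), Plek (0.95) and Ifitm10 (0.94), and Prf1 by Plek (0.97), Syk (0.97) and Klri2 (0.97). Nkg7 was followed by the chemokine gene Ccl5 (0.96), Lat2 (0.95) and Mical1 (0.95). Gzmb was followed by Kcnj8 (0.95), Itgax (0.93) and Car2 (0.93), and Gzmc by Fgr (0.95), Klra5 (0.93) and Pglyrp1 (0.93).

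Gzmk had the lowest best match of the 9 genes, Ms4a4c (0.89), ahead of 5730508B09Rik (0.87) and the globin gene Hba-a2 (0.86). Ifng was followed by Heatr6 (0.97), Rhof (0.97) and Tra2a (0.96), Cst7 by Dapk2 (0.95), Baiap3 (0.95) and Hhex (0.94), and Ctsw by Emid1 (0.97), Klrb1a (0.97) and Eef2k (0.96). Among the 9 genes themselves r was 0.92 for Gzma with Gzmb, 0.88 for Gzmb with Gzmc and between -0.17 and 0.31 for Gzmk with each of the others. Summed erythroid markers, which include globin genes, were at 107 CPM in MC38 and 3200 CPM in control CD8 T cells, the gate where Gzmk was highest, and their part in that match was not tested.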

How the data were processed

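UMI counts per gene and barcode were deposited by the authors for 1 MC38 and 1 control library, per the file headers. Tools named by the submitters' processing notes are STAR, bcl2fastq, R 3.6.0, Seurat 2.3.4 and Cell Ranger 2.2, the build is GRCm38.p6, and the matrix header gives software version 3.0.2.

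Barcodes under 200 genes or over 10% mitochondrial UMIs were dropped, as were scrublet doublet calls (expected rate 0.008 per 1000 barcodes; 1727 MC38 and 569 control calls), with Python 3.11.15 and scanpy 1.11.5. CPM is a gene's share of the UMI counts summed over a gate's cells in a library. Nothing was tested between groups, because each had 1 library. Intervals (scipy 1.17.1) are exact throughout: Poisson for CPM, binomial for shares, conditional on the summed UMIs for ratios; a library at 0 UMIs was set to 3 for a ratio. Some shares were recomputed after each cell was thinned at random to 1000 UMIs with a fixed seed. The ratio and interval code was tested on simulated data. Levels were not scaled by gene length, since reads come from the 5′ end of transcripts, so levels of different genes are not compared.

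The 9 genes and the gene lists were chosen with earlier results of these data known, and the 3 promoter motifs after values of the 9 genes had been seen. All 9 genes are named in every gate, and of each list the genes with the highest and lowest ratio, except 1 list gene that is not reported here. Other settings were tried 16 times, 3 of them chosen after seeing the data. Positions are from GENCODE M21 and upstream windows from RefSeq, which held 8 of the 9 genes.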

Additional observations from a re-analysis of the deposited data

Results flagged for a closer look

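Gzma had ratios of opposite sign between gates, with counting intervals on either side of 0. Its log2 ratio of MC38 over control was 4.61 in CD4 T cells and 0.95 in ILC1-like cells, and -2.41 in innate-like T cells. The innate-like T ratio turned positive in 5 of 14 other settings (0.27 to 1.47), and the CD4 T count was lost without 1 cell, so opposite directions were not established. The difference between gates was not tested, 1 MC38 cell held 108 of the 122 MC38 Gzma UMIs of the CD4 T gate, and the MC38 innate-like T gate held 13 cells.

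Members of the set were also seen in gates outside the comparison, at levels whose lower counting bound was over 3 times the upper bound in B cells. In cells gated as basophils or mast cells, Nkg7 was at 146 CPM in MC38 and 98.5 CPM in control, and Cst7 was at 142 CPM in MC38 and 118 CPM in control. Cst7 had a UMI in 32.1% of MC38 and 31.3% of control cells of that gate. Gzmb was at 54.6 CPM in its MC38 cells, with 15 of 30 UMIs in 1 cell. Gzmc was at 66.7 CPM in its control cells, with all 21 UMIs in 1 cell. In plasmacytoid dendritic cells Ctsw was at 19.8 CPM in the MC38 library.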

How the results depend on the processing

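Of 495 ratios recomputed under the 14 alternatives that changed cells or scaling, 399 kept their size within the counting interval, 88 moved out of it and 8 reversed. A reversal was counted only where the ratio as reported was past 1.5-fold. Changes of sign in the other ratios, some of them near 0, were not counted. Gzma in innate-like T cells reversed to a log2 ratio of 0.27 at the 30% mitochondrial limit, 0.33 with no limit on other lineages, 1.47 with gates at 1 UMI, 0.28 after thinning to 1000 UMIs and 0.93 at 30% with no lineage limit. Cst7 there reversed to 0.36 at the 30% limit. Gzmc in NK cells reversed to -0.41 as a mean of cells' CPM and to -3.52 with no limit on Trac and Cd3 UMIs.

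Counts of the 9 genes past 1.5-fold moved as follows, with the share of all genes past it under the same setting in brackets. At the 30% limit, 5 of 9 were higher in MC38 CD8 T (19.1%), 7 of 9 in CD4 T (19.4%), 1 of 8 in innate-like T (23.1%) and 0 of 8 in NK cells (9.56%), and 0 were lower in CD8 T (9.69%), 1 in CD4 T (10.6%) and 0 in ILC1-like cells (15.3%). At 30% with no lineage limit, 5 of 9 were higher in CD8 T (21.5%), 3 of 8 in innate-like T (20.9%) and 0 of 8 in NK cells (11%), and 0 were lower in CD8 T (9.59%) and 2 in CD4 T cells (10.9%). At the 5% limit, the 1 gene counted in innate-like T cells was higher (14.4%) and 0 were lower (40.6%). With no lineage limit, 2 of 8 were higher in innate-like T cells (16.7%) and 1 of 9 lower in CD4 T cells (12.2%). Gates at 1 UMI gave 1 of 6 higher in innate-like T cells (20.2%). Thinning left 4 to 7 genes counted, with 0 higher in CD8 T (11.7%), CD4 T (15.5%) and NK cells (10.6%), and 0 lower in CD8 T (17.6%), 0 in ILC1-like (17.4%) and 1 in innate-like T cells (25.8%). As a mean of cells' CPM, 0 of 8 were higher in NK cells (10.6%). With no limit on Trac and Cd3 UMIs, 0 of 9 were higher (8.81%) and 1 lower (13.5%) in NK cells. A minimum of 5 UMIs gave 6 of 9 higher in CD4 T (20.7%) and 1 of 8 in innate-like T cells (25.4%), and one of 100 UMIs 0 of 6 lower in ILC1-like (9.81%) and 1 of 4 in innate-like T cells (22.3%). The cause of these moves was not tested.

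No paired analysis was possible because each group had 1 library, and for the same reason no library was left out. Barcodes over the mitochondrial limit were far more frequent in the control library, so the cells compared are a selected part of each.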
